A study of Homo sapiens with 2 samples.

Results

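The brain-enriched microRNA (miRNA) families miR-7, miR-9, miR-128 and miR-218 were followed in hCMEC/D3, a line of immortalised endothelial cells from human brain microvessels with which the blood-brain barrier is modelled in culture. The members are all rows of the deposited table whose precursor (hairpin) is hsa-mir-7-1, hsa-mir-7-2, hsa-mir-7-3, hsa-mir-128-1, hsa-mir-128-2, hsa-mir-9-1, hsa-mir-9-2, hsa-mir-9-3, hsa-mir-218-1 or hsa-mir-218-2. These 10 hairpins, of 1600 in the table, gave 17 of its 2363 rows and 9 of its 2042 mature names. Small RNA was sequenced from 2 libraries of this line, which the labels number replicate 2 and replicate 8, and there is no second group. The labels do not say whether the replicates came from separate cultures, so differences between them may be technical.

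A hairpin is cut into a duplex with a 5p and a 3p arm. One arm, the leading arm, is usually kept by Argonaute to repress messenger RNAs, and the other, the passenger arm, is mostly degraded. The leading arm recognises its targets mainly through its seed, bases 2 to 8. In each of these families several hairpins on different chromosomes encode the same leading arm, while most passenger arms differ between hairpins, so the passenger arm can show which locus is transcribed and processed. In the brain, miR-9 is known from neural progenitors, miR-128 from neurons and miR-218 from motor neurons, and miR-7 is known as the partner of the circular RNA CDR1as and is also abundant in endocrine cells.

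The mature sequences are shown with the seed in capitals (RefSeq, GRCh38.p14 tables, 5′ to 3′), because the seed sets the families apart. The bases after the seed separate miR-7-1-3p from miR-7-2-3p, while each leading arm is the same at all hairpins of its family. The table uses the name miR-128 for the arm that RefSeq calls miR-128-3p.
miR-7-5p: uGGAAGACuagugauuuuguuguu
miR-128-3p: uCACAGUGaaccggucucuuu
miR-9-5p: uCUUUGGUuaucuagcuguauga
miR-9-3p: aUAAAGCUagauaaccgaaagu
miR-218-5p: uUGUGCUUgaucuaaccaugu
miR-7-1-3p: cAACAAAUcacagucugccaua
miR-7-2-3p: cAACAAAUcccagucuaccuaa
The leading arms are 21 to 24 bases long and each read covers about 1 molecule, so counts were not divided by length. No seed is shared between the 4 families. Among all RefSeq human mature miRNAs, the seeds of miR-7-5p, miR-9-5p, miR-9-3p and miR-218-5p belong to no other name. The seed of miR-128 is also that of miR-216a-3p and miR-3681-3p.

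Exact matching to both strands of GRCh37 found miR-7-5p at 3 places, miR-9-5p and miR-9-3p at 3 each, miR-128-3p at 2 and miR-218-5p at 2. All of these lie in the member hairpins. For miR-7 the hairpins are MIR7-1 at chr9:86584663-86584772 (minus strand), MIR7-2 at chr15:89155056-89155165 (plus) and MIR7-3 at chr19:4770682-4770791 (plus). MIR7-1 lies within HNRNPK, which encodes a nuclear ribonucleoprotein, on the same strand, and 1 of the 28 spanning transcripts has an exon there. MIR7-2 has no host gene in GENCODE, and MIR7-3 is intronic in all 56 spanning transcripts of the lncRNA MIR7-3HG. For miR-128, MIR128-1 at chr2:136422967-136423048 (plus) is intronic in R3HDM1 and MIR128-2 at chr3:35785968-35786051 (plus) is intronic in ARPP21, a gene known from neurons, with 6 spanning transcripts for each.

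The miR-9 hairpins all lie in lncRNA genes. MIR9-1 matched chr1:156390133-156390221 on the minus strand, intronic in MIR9-1HG, although the GENCODE entry of this name is placed on the plus strand. MIR9-2 is at chr5:87962671-87962757 (minus), where 15 of 33 spanning LINC00461 transcripts have an exon. MIR9-3 is at chr15:89911248-89911337 (plus), where 2 of 10 spanning MIR9-3HG transcripts have an exon. The miR-218 hairpins are intronic in genes of SLIT guidance proteins: MIR218-1 at chr4:20529898-20530007 (plus) in SLIT2 and MIR218-2 at chr5:168195151-168195260 (minus) in SLIT3.

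The libraries had nearly the same depth. With 1 row kept per mature name, the totals were 2721287 counts in replicate 2 and 2727675 in replicate 8, and levels are given as CPM (counts scaled to these totals). A count of 0 allows up to 3 counts, or 1.10 CPM in either library. The labels name no molecular identifiers, so intervals, this limit and tests on reads cover counting error only. Across the 695 mature names with at least 10 summed counts the libraries differed by far more than counting noise (chi-square of 60.5 per degree of freedom), so they were kept as 2 samples. The endothelial miR-126-3p was the most abundant of all names, at 109395 and 115057 CPM in replicates 2 and 8. Of the marker lists of other cells, the 3 neuronal names summed to 20.6 and 18.7 CPM, mostly from miR-137 (53 and 50 counts). miR-124-3p had 3 and 1 counts and miR-124-5p had 0. The 5 oligodendrocyte names summed to 108 and 92.8 CPM, mostly from miR-338-5p (166 and 115 counts) and miR-219-1-3p (111 and 125). Of the others, miR-338-3p had 14 and 12 counts, miR-219-5p 2 and 1, and miR-219-2-3p none. The endocrine miR-375 was at 39.0 and 35.9 CPM, and the 4 mural names summed to 846 and 401 CPM. The 2 liver names summed to 235 and 252 CPM, nearly all from miR-122-5p with 639 and 688 counts, which was above miR-9-5p and miR-218-5p. The 7 blood names summed to 15.8 and 7.70 CPM, mostly from miR-451a (43 and 19 counts), and 5 of them had no count.

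**Figure D1:**
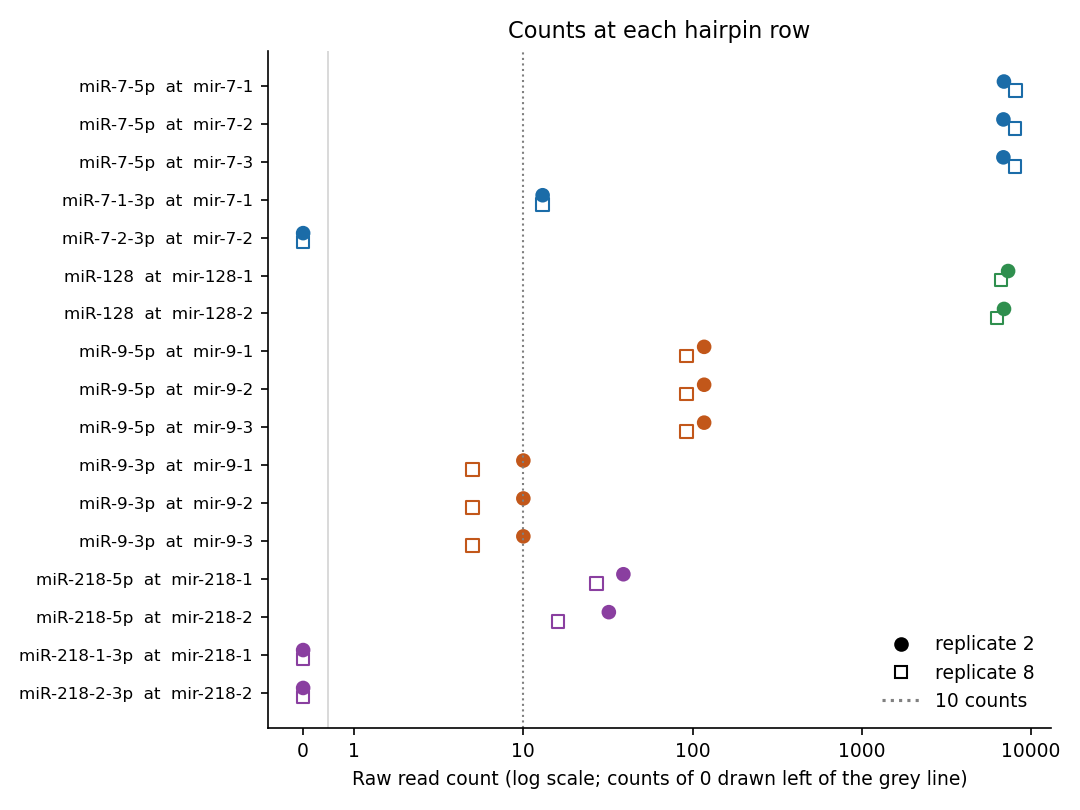
Raw read counts (log axis) of the 17 rows of the 10 hairpins; filled circles are replicate 2, open squares replicate 8, and counts of 0 stand left of the grey line. The rows of miR-7-5p and miR-128 lie between 6274 and 8087 counts, those of miR-9-5p at 117 and 92, those of miR-218-5p between 16 and 39, and 3 passenger arms have no count.

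The 4 families were present at very unequal levels. The leading arms of miR-7 and miR-128 ranked 44 and 46 among all names by mean level, whereas those of miR-9 and miR-218 were low, and 5 of the 9 member names reached 10 counts in both libraries, the threshold used for detection. Over all names 26.6% did so. Summed over the families the level was 5292 CPM in replicate 2 and 5446 CPM in replicate 8, of which miR-7 and miR-128 together held all but a small part: miR-9 contributed 0.882% and 0.653% of it and miR-218 0.271% and 0.182%. In a bulk library, expression by few cells and a low level in all cells cannot be told apart.

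For miR-7-5p, known to repress growth-factor signalling genes, the counts were 6909 in replicate 2 and 8087 in replicate 8. These are 2539 CPM (95% Wilson interval 2480 to 2599) and, in the second library, 2965 CPM (2901 to 3030), a mean of 2752 ± 301 CPM (SD, n = 2). For miR-128 the counts were 7313 and 6632, or 2687 CPM (2627 to 2750) and 2431 CPM (2374 to 2491), a mean of 2559 ± 181 CPM. The intervals of the 2 libraries, which cover counting error at total-count scaling, did not overlap for either of them. This was not unusual: in the test given below, 34.2% of 695 names differed between the libraries. The difference of miR-128 was not called under the other scalings given there. Their order differed between the libraries: per count of miR-128 there were 0.945 counts of miR-7-5p in replicate 2 and 1.22 in replicate 8, a comparison that no library scaling can change. The difference of their means was smaller than the spread of miR-7-5p, so neither can be called the more abundant.

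In the order of levels, nearest to miR-7-5p in mean level over the 2 libraries were miR-28-3p at 2911 ± 206 CPM and miR-93-5p at 2829 ± 181 CPM above it, and miR-186-5p at 2735 ± 96.7 CPM below it, before miR-128. Below miR-128 came miR-99b-3p at 2518 ± 45.4 CPM and miR-425-5p at 2506 ± 29.8 CPM. Each of these lay within 1 SD of the member it neighboured. The endothelial miR-126-3p exceeded miR-7-5p 40.8-fold and miR-128 43.8-fold in mean CPM.

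miR-9-5p, which in neural progenitors represses REST, was listed at 117 counts in replicate 2 and 92 in replicate 8, or 43.0 CPM (35.9 to 51.5) and 33.7 CPM (27.5 to 41.4). The mean was 38.4 ± 6.55 CPM, rank 294, and the intervals of the libraries overlapped. miR-7-5p had 59.1 and 87.9 times its counts, and miR-128 had 62.5 and 72.1 times. Its nearest names in level were miR-3176, miR-4758-3p, miR-3661 and the endocrine marker miR-375, all within 0.921 CPM of it and so well inside its spread.

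Reads of miR-218-5p numbered 39 in replicate 2 and 27 in replicate 8, or 14.3 CPM (10.5 to 19.6) and 9.90 CPM (6.80 to 14.4). Its mean was 12.1 ± 3.13 CPM, rank 412, which is 3.00 times below miR-9-5p in replicate 2 and 3.41 times below it in replicate 8. All counts of miR-218-5p were below all counts of miR-9-5p. Its neighbours miR-664b-5p, miR-340-3p, miR-2116-3p and miR-31-3p lay within 0.187 CPM, and their order changed between the libraries.

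**Figure D2:**
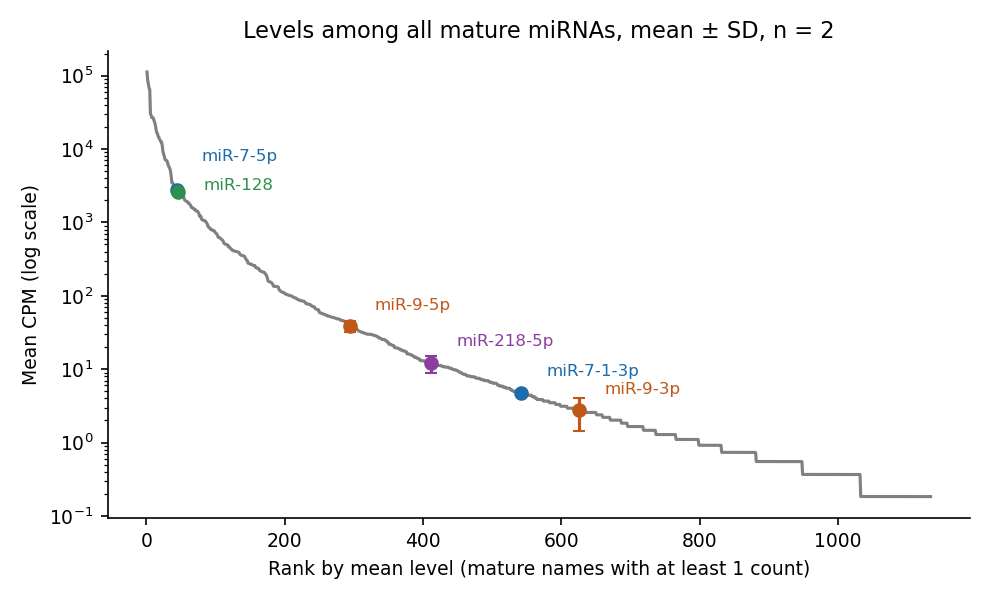
Mean CPM (log axis) of every mature name with a count, by rank; coloured points are the 6 member names with a count, bars are the SD over 2 libraries. miR-7-5p and miR-128 sit at ranks 44 and 46, miR-9-5p at 294, miR-218-5p at 412, miR-7-1-3p at 542 and miR-9-3p at 625.

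The passenger arms were scarce. For miR-7-1-3p there were 13 counts in each library (4.78 and 4.77 CPM), and for miR-9-3p, itself known as a functional arm, 10 and 5 (3.67 and 1.83 CPM). In replicate 8 miR-9-3p was therefore below the detection threshold. The arms miR-7-2-3p, miR-218-1-3p and miR-218-2-3p had no count in either library, as had 908 of all names. No passenger arm was listed for the miR-128 hairpins or for mir-7-3.

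Which locus is active could be addressed for miR-7 alone. The miR-7-1-3p and miR-7-2-3p arms have the same seed but differ at 4 positions, counted from the 5′ end with the miR-7-1-3p base first: A10C, G17A, A20U and U21A. Each occurs at 1 place in GRCh37. All 13 counts in replicate 2 and all 13 in replicate 8 were listed at mir-7-1 and none at mir-7-2. The share was 100%, with a lower 95% Wilson bound of 77.2% in each library. This separates mir-7-1 from mir-7-2, rests on 26 counts in all, and gives no information on mir-7-3. For miR-218 the passenger arms, which differ by an edit distance of 5, had no count at either locus, so no share could be formed. At the depth of miR-218-5p this is a weak limit: 3 counts would be 7.69% of the counts at mir-218-1 in replicate 2 and 11.1% in replicate 8.

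The share of a hairpin's counts on its passenger arm was lower for miR-7 than for miR-9, with intervals that do not overlap. At mir-7-1 the 3p arm held 0.188% of replicate 2's counts (Wilson interval at 95%, 0.110 to 0.321) and 0.160% of replicate 8's (0.0938 to 0.274). At mir-7-2 it held none of 6861 and 8045 counts, with upper 95% Wilson bounds of 0.0560% and 0.0477%. At the miR-9 hairpins it held 7.87% (4.33 to 13.9) and 5.15% (2.22 to 11.5). Over the 202 hairpins with 2 arm rows and at least 50 counts in each library, the median share of the minor arm was 3.16% in replicate 2 and 2.72% in replicate 8, so mir-7-1 lay below that median and the miR-9 hairpins above it. For mir-7-1 and mir-7-2 the leading-arm counts may include reads from another locus, so their passenger shares and bounds may be too low.

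Arm shares were tested between the libraries with a two-sided Fisher's exact test, adjusted by Benjamini-Hochberg over the 202 hairpins. Of these, 19.8% differed at an adjusted p under 0.05. None of the 5 member hairpins tested, mir-7-1, mir-7-2 and the 3 miR-9 hairpins (which carry the same counts), was among them, and none had an unadjusted p under 0.05. At mir-7-2 the 3p arm had no count in either library, so the test there could not find a difference. The adjusted p by Fisher's exact test was 0.977 at mir-7-1 and 0.905 at the miR-9 hairpins. These comparisons rest on 13 and at most 10 passenger counts a library, so a missed threshold does not show that the shares were alike.

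The rows of the leading arms were compared next, since the table lists each leading arm once per hairpin. For miR-7-5p the row at mir-7-1 held 6909 and 8087 counts, that at mir-7-2 6861 and 8045, and that at mir-7-3 6858 and 8030. The mir-7-1 row was the highest in both libraries, by 48 and 42 counts over mir-7-2 and by 51 and 57 over mir-7-3. The smaller rows held 99.3% to 99.5% of the largest, so the counts of this arm hardly separate the 3 hairpins. The highest row fell on the hairpin whose passenger arm was the one with counts. No hairpin sequence of mir-7-1 was available, so the bases around the arm there were not compared. What makes up the row difference was not tested.

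For miR-128 the row at mir-128-1 held 7313 and 6632 counts and that at mir-128-2 held 6917 and 6274. The mir-128-2 row was 94.6% of the mir-128-1 row in each library (Wilson interval 94.0 to 95.1 in both), a difference of 396 and 358 counts that was proportionally alike in both libraries. The interval treats the smaller row as part of the larger, and whether the reads are nested in this way is not known. The hairpins are shown with both arms in capitals (RefSeq, same tables), because the base after the 3p arm is where they part.
mir-128-1: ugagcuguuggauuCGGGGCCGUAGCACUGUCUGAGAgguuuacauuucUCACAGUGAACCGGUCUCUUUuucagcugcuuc
mir-128-2: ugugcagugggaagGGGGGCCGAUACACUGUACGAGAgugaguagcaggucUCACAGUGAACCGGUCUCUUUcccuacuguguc
The stretch that both share around the arm is 23 bases, with 2 shared bases before the arm and 0 after it. A read of the 21-base arm or a shorter one fits both hairpins, and a read that extends past its 3′ end with u or c fits 1 of them. Whether the 396 and 358 counts are such reads was not tested, since the table gives no read sequences.

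The miR-9 rows were identical at all 3 hairpins, for the 5p arm (117 and 92) and for the 3p arm (10 and 5). These hairpins share longer stretches, as the pair shown here with both arms in capitals illustrates.
mir-9-1: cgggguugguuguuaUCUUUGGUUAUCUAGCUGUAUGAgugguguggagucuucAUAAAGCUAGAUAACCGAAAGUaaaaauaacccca
mir-9-2: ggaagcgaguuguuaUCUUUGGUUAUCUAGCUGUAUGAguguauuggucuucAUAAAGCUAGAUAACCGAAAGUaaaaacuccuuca
Around miR-9-5p they have 33 bases in common, 7 before the arm and 3 after it, and around miR-9-3p also 33. Each of them shares 26 bases with mir-9-3 around miR-9-5p and 25 around miR-9-3p. The counts therefore do not separate the miR-9 loci.

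For miR-218-5p the row at mir-218-1 held 39 and 27 counts and that at mir-218-2 held 32 and 16. The mir-218-2 row was 82.1% of the other in replicate 2 (67.3 to 91.0) and 59.3% in replicate 8 (40.7 to 75.5). These intervals overlap, and they too treat the smaller row as part of the larger. The mir-218-1 row was higher in both libraries, by 7 and 11 counts. The hairpins, with both arms in capitals, differ in the base directly before the 5p arm and share 3 bases after it.
mir-218-1: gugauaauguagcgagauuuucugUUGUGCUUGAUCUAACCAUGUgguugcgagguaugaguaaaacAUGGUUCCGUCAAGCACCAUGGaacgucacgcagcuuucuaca
mir-218-2: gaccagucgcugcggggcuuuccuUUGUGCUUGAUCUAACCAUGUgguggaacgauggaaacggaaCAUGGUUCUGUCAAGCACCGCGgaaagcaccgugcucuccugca
The row difference comes from few counts, and neither passenger arm had a count to set beside it.

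Near-equal rows were usual in the table. Among its 48 names with several rows and at least 100 summed counts in the highest, 43 had a lowest row above 90% of their highest, the median ratio was 99.8%, and the rows were identical in 18. All 3 members of that size, miR-7-5p, miR-128 and miR-9-5p, were above 90%. Only 5 of the 48 names had a smaller ratio than miR-128, whereas 15 had a smaller one than miR-7-5p. In the 30 names whose rows differed, the same hairpin was highest in both libraries for 23, so the repeat of mir-7-1 and mir-128-1 in both libraries was the usual case.

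**Figure D3:**
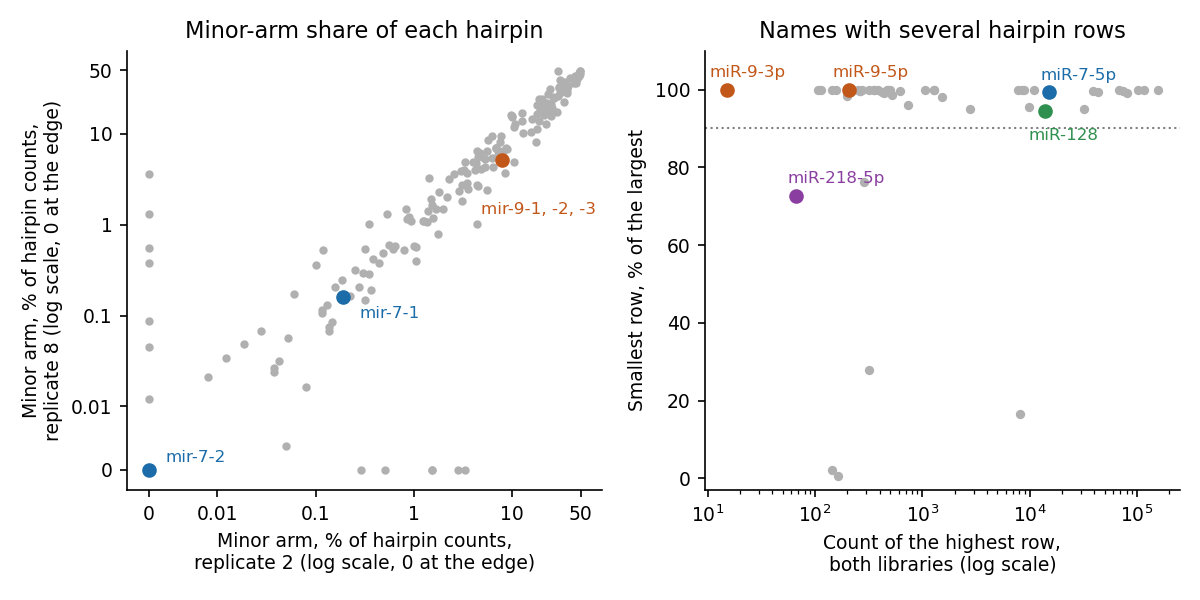
Left, share of the minor arm in each of 202 hairpins (log axes, percent), replicate 2 against replicate 8; right, smallest row as a percent of the largest against the count of the highest row for the 48 names with several rows (grey) and the members, with the 90% line dotted. mir-7-1 lies near 0.188% and 0.160% and mir-7-2 at 0, the miR-9 hairpins at 7.87% and 5.15%, and miR-218-5p is the member below the line.

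Between the libraries, each name with at least 10 summed counts was tested with a two-sided exact binomial test against the library totals, adjusted by Benjamini-Hochberg over all 695 names. This compares 2 libraries of the same line, not conditions. Of the 9 member names, 1 was higher and 1 lower in replicate 8, 4 did not pass and 3 had no count to test. Over all tested names 34.2% passed, 10.8% as higher and 23.5% as lower, so a call between these libraries was common. The split depends on scaling: the calls were 31.5% higher ones when total counts set the scale, 46.9% under TMM and 51.8% under DESeq2's size factors, and the median log2 ratio of all tested names was -0.11, -0.03 and 0.00.

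The level of miR-7-5p was higher in replicate 8, by 0.22 on the log2 scale (interval at 95%, 0.18 to 0.27; adjusted p = 4.0e-20 by the exact test). It was also called under TMM (0.31) and DESeq2's factors (0.34). For miR-128 the log2 difference was -0.14 (-0.19 to -0.10; adjusted p = 3.0e-08 by the exact test), lower in replicate 8. That call ended under either scaling: the difference was -0.06 with TMM (adjusted p = 0.056, exact test) and -0.03 with DESeq2's factors (adjusted p = 0.37, exact test). For scale, the median absolute log2 ratio of the 367 names with at least 100 summed counts was 0.21.

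The low members did not pass the test, with wide intervals. The log2 difference of miR-9-5p was -0.35 (-0.76 to 0.06; adjusted p = 0.19, exact test) and that of miR-218-5p was -0.53 (-1.30 to 0.21; adjusted p = 0.28, exact test). For miR-9-3p it was -0.94 (-2.90 to 0.68) and for miR-7-1-3p 0.00 (-1.23 to 1.22).

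**Figure D4:**
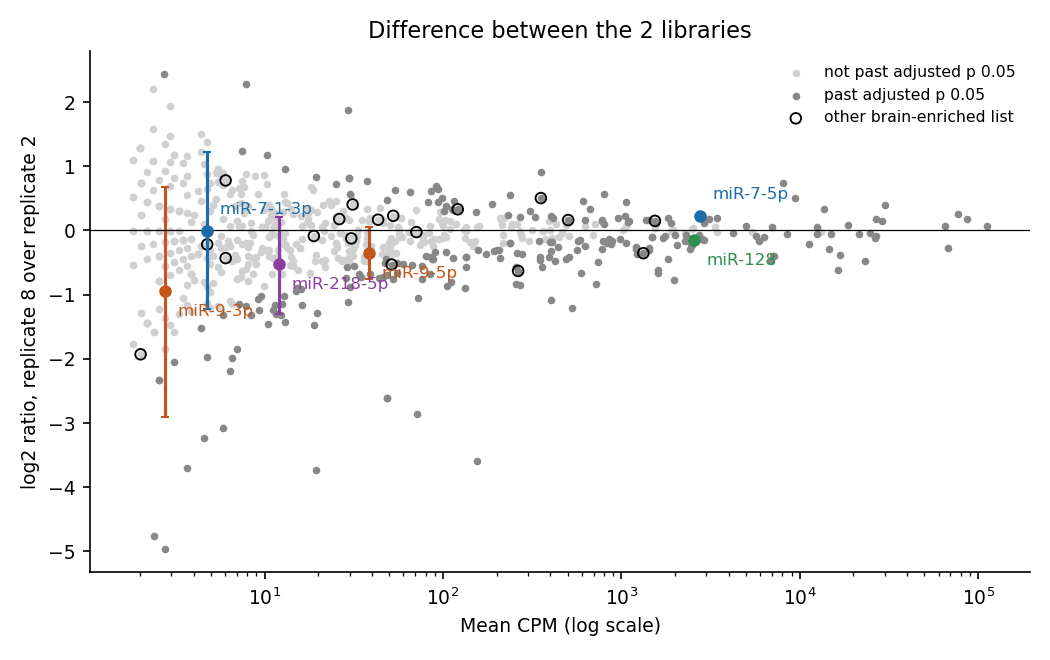
Log2 ratio of replicate 8 over replicate 2 against mean CPM (log axis) for the 695 tested names, grey by test outcome; open circles are other brain-enriched miRNAs and coloured points the 6 tested members with 95% intervals. miR-7-5p at 0.22 and miR-128 at -0.14 have narrow intervals, and those of the 4 low members include 0.

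A list of other brain-enriched miRNAs was read beside the members. Its 24 hairpins in the table gave 32 mature names. Of these, 17 were detected and 7 had no count, beside 26.6% detected and 908 without a count among all 2042 names. The median level of the 32 names was 5.41 CPM, against 4.77 CPM for the 9 members and 0.367 CPM for all names. The list summed to 4503 and 4429 CPM. Every name of that list was below miR-7-5p and miR-128 in both libraries. The highest were miR-139-5p at 1544 ± 113 CPM, miR-330-3p at 1329 ± 230 CPM and miR-330-5p at 504 ± 39.9 CPM. The arms of miR-132 and miR-212 were lower. miR-132-3p was at 354 ± 86.6 CPM and miR-132-5p at 121 ± 19.5 CPM. miR-212-5p was at 31.2 ± 6.18 CPM and miR-212-3p at 26.2 ± 2.29 CPM. The neuronal miR-137 was at 18.9 ± 0.810 CPM, between miR-9-5p and miR-218-5p. miR-153 and miR-383 had no count. Of the 18 names of this list with enough counts to test, 4 were higher and 3 lower in replicate 8 in the same test, beside 34.2% called over all tested names (10.8% higher and 23.5% lower).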

How the data were processed

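Small RNA libraries were made with adaptor ligation, PCR and gel selection, per the labels' protocols. The authors deposited raw counts and RPM values (counts scaled by their own denominator) for each mature name at each precursor. CASAVA 1.9, FastQC, cutadapt, Bowtie 0.12.7 and hg19 are named in the submitters' processing notes; the counter and the miRBase release are not given in the sources used here. For a name with several rows, only its largest row by mean count was used, which left out 14.1% and 14.6% of the column sums. CPM used the remaining totals. Exact binomial, Fisher's exact and Wilson calculations used scipy 1.17.1, with log2 ratios after adding 0.5 counts. TMM sizes came from edgeR 4.0.16 and size factors from DESeq2 1.42.0. The tests were checked on simulated counts with counting noise only, scaled by the names left unchanged. The check therefore does not cover the larger spread between these libraries. Hairpins were matched to GRCh37 (the assembly hg19 names) and to GENCODE v44 lifted to it; MIR7-1 was placed by GENCODE. A RefSeq hairpin sequence was available for 9 of the 10 hairpins, all but MIR7-1, and these 9 matched GRCh37. Named were all member rows, the names next in level, and listed brain-enriched and marker miRNAs. The members, lists and tests were chosen with earlier results of these data known.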

Additional observations from a re-analysis of the deposited data

How the results depend on the processing

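No paired analysis was possible because the series has 1 group. Family levels depended mainly on repeated rows. With rows summed they were 7042 CPM for miR-7, 106 for miR-9, 4266 for miR-128 and 17.9 for miR-218, which counts a read at each hairpin. With the lowest row kept, miR-218 was at 8.83 CPM. In deposited RPM, whose denominator is not known here, miR-7 was at 2352 and miR-128 at 2184. Requiring 100 counts in both libraries left 2 member names and 10 names of the other brain-enriched list. The share of all names at this threshold was not worked out. Of 6 members tested, the number that differed between the libraries was 1 under TMM and 1 under DESeq2's size factors. It was 4 with rows summed, where repeated reads enter the test several times. Over all tested names 32.2%, 31.9% and 35.2% differed in these 3 settings. The log2 ratio of miR-7-1-3p, -0.0034 as reported and far from any call, was 0.083 under TMM and 0.110 under DESeq2's size factors. Leaving out either replicate gives the level of the other library, with 5 or 6 member names then at 10 or more counts. Depth limits the precision for the passenger arms (at most 13 counts) and for miR-218-5p.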

Other observations

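Of 9 hairpins of the other brain-enriched list with enough counts on both arms, 2 differed in arm share between the libraries, near the 19.8% of all hairpins tested. At mir-139 the 5p arm had 3985 and 4429 counts and the 3p arm 873 and 565, so the 5p share went from 82.0% in replicate 2 to 88.7% in replicate 8 (Fisher's exact adjusted p = 2.2e-19). At mir-330 the 5p arm had 1294 and 1451 counts and the 3p arm 4059 and 3183, a 5p share of 24.2% and 31.3% (Fisher's exact adjusted p = 4.0e-14). Arm shares need no library scaling. Of the names that share the seed of miR-128, miR-216a-3p had 269 and 246 counts and miR-3681-3p had none.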
